A study of Mus musculus with 20 samples.

Results

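The data described here are the values of 36 genes that are typical of astrocytes, measured in the prefrontal cortex of mice after social stress and in unstressed siblings. The 36 names were a list set before this fit but chosen with earlier results of these data known. All 36 were found among the 27384 gene names on the array. A gene name with several probes was represented by its brightest probe, so that the 36 genes stand on 36 of the 56 probes that carry their names. The array was a two-colour design on which RNA of stressed mice and RNA of control mice were labelled with different dyes and bound to the same probes, and the value followed here is the log2 ratio of stress over control. A ratio of 0 means equal signal, and a value below 0 means less signal in the stressed mice.

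There were 4 time points, each with its own stress group and its own control group of siblings: acute stress (1 social encounter), 8 days, 13 days, and recovery, in which 5 days of rest came after the 13 days of encounters. In the acute, 8-day and 13-day groups the brains were taken 1 day after the last encounter. Under repeated stress the number of encounters per day was raised over time. All animals were adult male Swiss-Webster mice, housed singly, with no genotype or treatment named beyond the stress itself. Stressed mice were placed in the cage of a group of unfamiliar males, while the controls stayed undisturbed in a separate, adjacent room, so that the stress and the room cannot be told apart. At each time point 3 stress pools were compared with 3 control pools, and each pool held equal amounts of RNA from 3 mice. The data analysed here hold 2 arrays with exchanged dyes for each of pools 2 and 3 and 1 array for pool 1, which makes 5 arrays per time point and 20 in all; a dye swap of pool 1 was not analysed here. The pool number goes with the slide and the scan day: at all 4 time points pool 1 was on slide 1 and pool 2 on slides 2 and 3, scanned on day 1, and pool 3 on slides 4 and 5, scanned on day 2. The value of a single pool is therefore also a value within its slides. Each mean below is over the 3 pools of a time point, with the SD over these pools.

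Astrocytes are the glial cells that take up the glutamate and potassium which neurons release, turn glutamate into glutamine, and wrap their endfeet around blood vessels, where water channels are concentrated. Through gap junctions they form a network across the cortex, they store glycogen and supply lactate, and they activate thyroid hormone for their neighbours. Because whole tissue was measured, fewer astrocytes and less RNA per astrocyte cannot be told apart in any ratio below.

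All 36 probes were well above background in both channels on all 20 arrays, and none was saturated, in libraries where 57.8% to 69.4% of all probes were well above background. Neuron markers (10 of 10), oligodendrocyte markers (10 of 10) and microglia markers (10 of 10) were likewise above background on every array, as cortex would give, and 6 of 10 markers of the olfactory bulb were too. The number of arrays limits the precision, and the dyes matter here. With both arrays of a pool expressed as stress over control, the original and the swap correlated at -0.36 to -0.09 over all probes and at -0.35 to -0.00 over the 36 genes, so that the small ratios of the 2 arrays did not run together. The orientation of each array was taken from its labels. A gene with a large ratio kept its sign: the haemoglobin gene Hbb-b1 was above 0 on 5 of 5 arrays at 13 days, at 1.38 to 1.96, swapped arrays included. The mean of both arrays cancels a dye effect in pools 2 and 3, and in pool 1 it stays. It also stays where the value of 1 array is missing, as for Chrdl1 in pool 2 at 8 days.

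**Figure D1:**
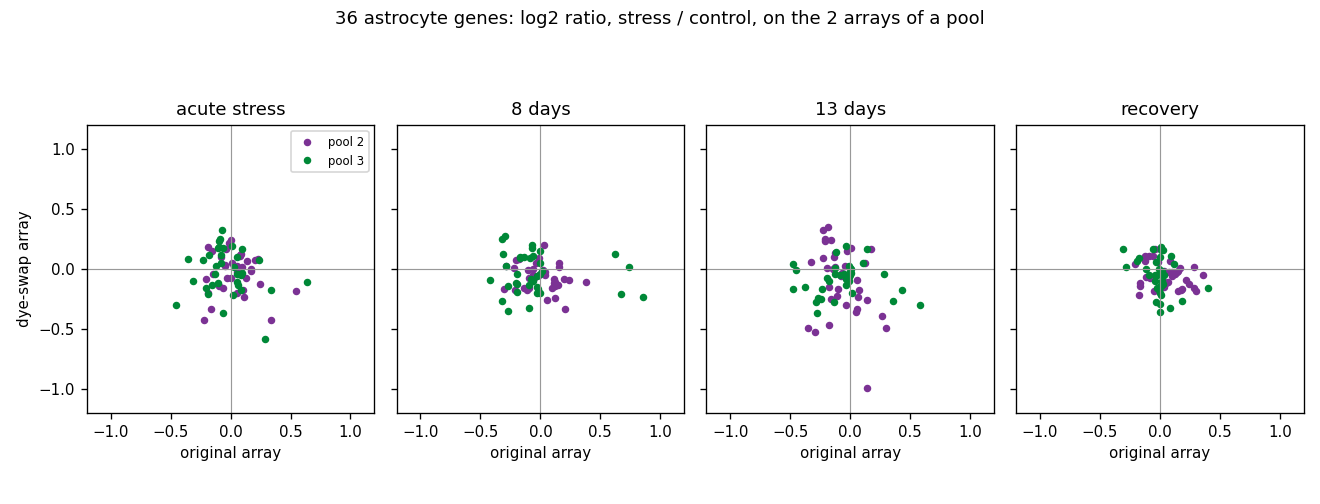
Log2 ratio of stress over control for the 36 astrocyte genes on the original array (x axis) and the dye-swapped array (y axis) of pools 2 and 3 at the 4 time points; each point is 1 gene. Points do not line up along a rising diagonal at any time point, and the correlations over the genes lie between -0.35 and -0.00.

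None of the 36 genes passed the thresholds of the study. These were an adjusted p below 0.05 in limma's test and a log2 ratio above 0.5 in size. With them the study called far more transcripts at every time point than were called here. Among all probes, this fit called 1 after acute stress, 0 at 8 days, 9 at 13 days and 0 in recovery. Very few genes of any kind passed, so a count of 0 among the 36 says little about them. The counts below belong to this fit of pool means, not to the study's own. The count was 0 of 36 after acute stress, where 0.00254% of all 39429 probes were called, 0 of 36 at 8 days (0% of all probes), 0 of 36 at 13 days (0.0228%) and 0 of 36 in recovery (0%). The difference between 13 days and acute stress gave 0 of 36 (0.00254% of all probes), and the difference between recovery and 13 days gave 0 of 36 (0%). The lowest adjusted p among the 36 genes was 0.441 after acute stress, for Dio2, and 0.196 at 13 days, for Mlc1. At 8 days and in recovery every adjusted p was above 0.99. The group as a whole lay close to 0. Its median log2 ratio was 0.031 after acute stress, -0.039 at 8 days, -0.059 at 13 days and -0.002 in recovery, where the 16065 genes whose brightest probe was well above background on every array had medians of 0.003, -0.001, -0.001 and -0.000. By pool, the median of the 36 genes was 0.048, 0.011 and -0.004 after acute stress, -0.031, -0.029 and -0.060 at 8 days, -0.050, -0.066 and -0.057 at 13 days, and -0.014, 0.007 and -0.044 in recovery. All 6 pools at 8 and 13 days were thus below 0, by a small amount, while the pools of the other time points lay on both sides. For the genes well above background, pools 1 to 3 had medians of 0.021, 0.013 and -0.037 at 8 days. At 13 days these were 0.013, 0.008 and -0.024, so that pool 3 was below 0 for them too. In pool 2 at 8 days the median of the 36 genes was 0.023 on the original array and -0.077 on the swap. Without pool 1 the acute median was -0.003, so that its sign rested on that pool.

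**Figure D2:**
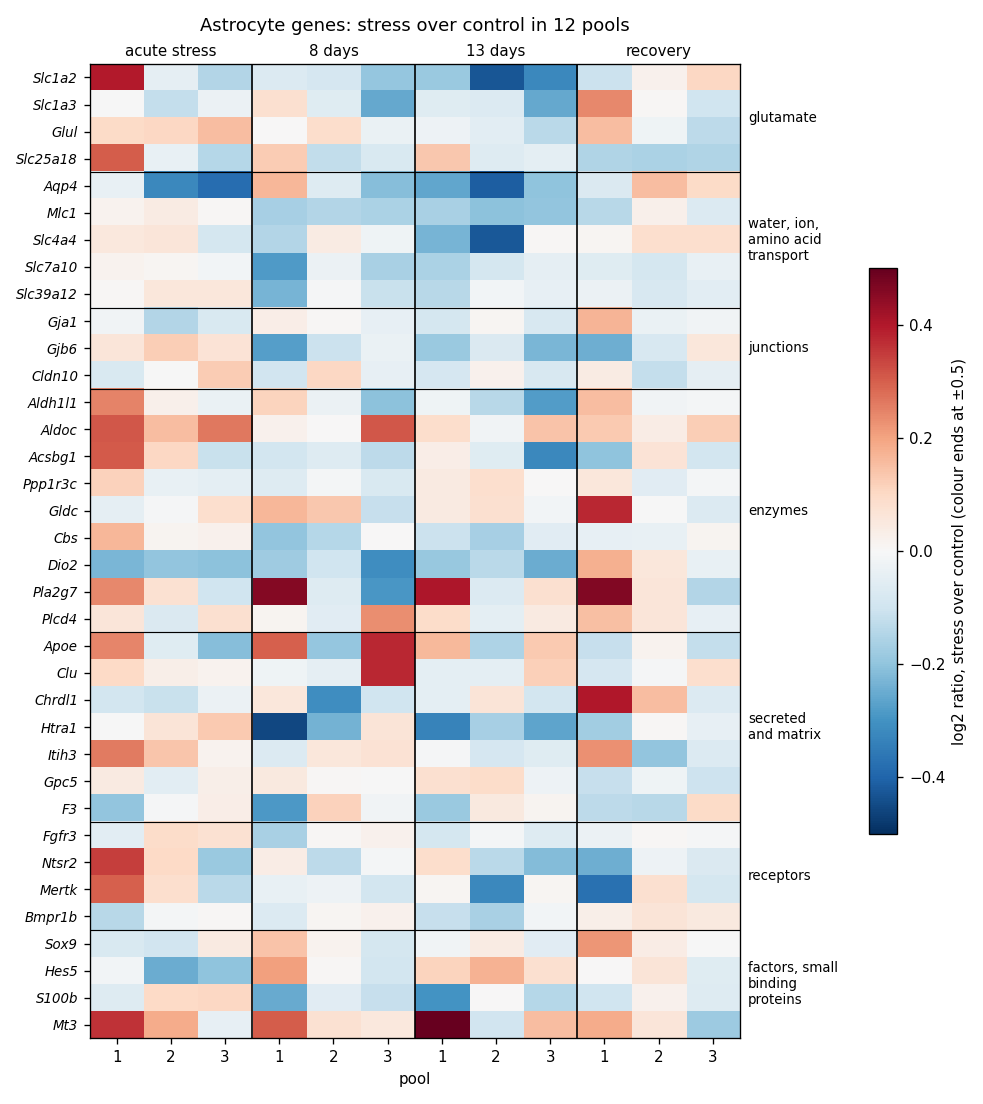
Log2 ratio of stress over control for the 36 astrocyte genes (rows, grouped by role) in the 12 pools (columns, 3 for each time point); red is higher and blue is lower in the stress pool, and the colours end at ±0.5. Rows such as Mlc1, Dio2 and Gjb6 are blue in all 6 pools at 8 and 13 days, and no row has 1 colour in all 12 pools.

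A weaker rule, chosen after the values had been seen and given as a description, counts genes at an unadjusted p below 0.05. The list of 36 was itself chosen with earlier results of these data known, so its counts are not independent of them. At 13 days 11 of 36 genes were below 0 by that rule, against 6.42% of the genes well above background, and 0 were above 0, against 4.56%. At 8 days 8 of 36 were below 0, against 2.83%, and 0 were above 0, against 1.18%. After acute stress 3 of 36 were below 0, against 3.22%, and 2 were above 0, against 3.12%, and in recovery there were 0 of 36 on either side, against 3.12% below and 1.15% above. These counts moved with single pools, and so did the shares of the genes well above background. At 13 days 7 genes were below 0 without pool 1 (3.41% of the genes well above background), 7 without pool 2 (6.34%) and 9 without pool 3 (4.84%). At 8 days 3 were below 0 without pool 1 (1.75%), 5 without pool 2 (5.79%) and 6 without pool 3 (1.49%). After acute stress 3 were below 0 without pool 1 (2.72%), 1 without pool 2 (2.48%) and 1 without pool 3 (3.34%), and in recovery 1 without pool 1 (0.815%), 3 without pool 2 (2.38%) and 1 without pool 3 (5.72%). On the other side of 0 the counts were small. After acute stress 1 gene was above 0 without pool 1 (2.33%), 1 without pool 2 (2.10%) and 4 without pool 3 (4.05%). At 8 days 1 was above 0 without pool 1 (0.510%) and 3 without pool 2 (1.84%), at 13 days 1 without pool 2 (3.42%), and in recovery 2 without pool 3 (4.08%). The processing moved the counts as well. With a normexp offset of 0 in place of 50, 8 genes were below 0 at 13 days (4.35%) and 5 at 8 days (1.82%), and with the value table of the authors 7 (4.60%) and 5 (1.32%). At 8 days the Feature Extraction ratios gave 4 (2.69%) and a trended, robust variance 5 (1.54%). Other settings gave higher counts at 13 days. They gave 12 without pool 1 of every time point (8.58%) and 13 with the pool number as a term (9.27%). Fits of all 20 arrays gave 12 with slide as a block (9.16%) and 12 with a dye coefficient (8.60%). At 8 days these settings gave 10 (4.30%), 8 (4.95%), 8 (5.01%) and 7 (3.70%) in the same order.

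Directions over the 3 pools were counted in the same way, also after the values had been seen. At 13 days 15 of 36 genes were below 0 in 3 of 3 pools, against 18.0% of the genes well above background, and 2 were above 0, against 14.9%. At 8 days 10 were below 0, against 12.2%, and 2 above, against 6.33%. After acute stress 6 were below 0, against 13.5%, and 8 above, against 12.9%, and in recovery 5 were below 0, against 14.8%, and 3 above, against 8.58%. Over 8 and 13 days together, 6 of 36 genes were below 0 in 6 of 6 pools, against 4.93% of the genes well above background. They were Slc1a2, Mlc1, Slc7a10, Slc39a12, Gjb6 and Dio2, of which Slc1a2 and Slc39a12 had a second probe that averaged above 0 at 13 days. By the brightest probes, only Dio2 of the 36 was below 0 in all 9 pools taken after acute stress, at 8 days and at 13 days. That pattern was found in 1.46% of the genes well above background. The second probe of Aqp4, nearly as bright as its first, was also below 0 in all 9 of these pools. The ratios of the 36 genes covered a median range of 0.454 over the 12 pools, with a median residual SD of 0.117, against 0.324 and 0.0968 for the genes well above background. The 36 genes were also brighter, with a median log2 intensity of 11.5 against 9.75, and the part of brightness in the spread was not tested. For some genes below, the levels of the stress pools do not overlap those of the control pools. The share of all genes that separate in this way is not given here, so it is a description only. Besides the genes so described, it held for Aldh1l1 and Slc39a12 at 13 days, S100b at 8 days and Clu after acute stress.

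Of the genes of glutamate handling, Slc1a2 (GLT-1), the main glutamate transporter of the forebrain, had the widest range of the 36, at -0.43 to 0.40. Its ratios were 0.40, -0.04 and -0.15 after acute stress, -0.07, -0.08 and -0.19 at 8 days, -0.18, -0.43 and -0.32 at 13 days, and -0.11, 0.02 and 0.10 in recovery. At 13 days it averaged -0.31 ± 0.12 (SD, n = 3 pools; adjusted p = 0.437 in limma's test), and the stress pools, at 11.92, 11.55 and 11.77 on the normalized log2 intensity scale, lay below all control pools, at 12.10, 11.98 and 12.10. The 2 arrays of pool 2 at 13 days disagreed, with 0.14 on the original and -0.995 on the swap. The gene had 3 probes, and their first 30 of 60 bases are shown because the probes gave different answers at 13 days. They lie on the plus strand of chromosome 2 in the coordinates of the array design (mm9), the brightest at chr2:102617752-102617811, the second at chr2:102622252-102622311 and the third at chr2:102626380-102626439.
Slc1a2 probe 1 by brightness: aagcaactctaatcagtgtgtctatgccgc
Slc1a2 probe 2 by brightness: gtagaatgtttcagagtttcatgggtgccc
Slc1a2 probe 3 by brightness: aacccagtttccagcattcagacatcagta
The second probe had 0.45, -0.02 and -0.05 at 13 days, a mean of 0.13, where the third had -0.11, -0.37 and -0.17, a mean of -0.22. Which exon or UTR each probe lies in was not looked up, as no annotation of that build was used here.

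The other genes of glutamate handling moved less. Slc1a3 (GLAST), the other astrocytic glutamate transporter, was at -0.06, -0.07 and -0.26 at 13 days and averaged between -0.13 and 0.05 over the time points. Glul, glutamine synthetase, was at 0.09, 0.11 and 0.15 after acute stress and at -0.03, -0.05 and -0.13 at 13 days, with adjusted p of 0.976 and 0.841. Slc25a18, a mitochondrial glutamate carrier, was among the 3 genes with the largest test statistic in recovery, with -0.15, -0.16 and -0.15, a mean of -0.15 ± 0.003 (adjusted p = 0.999). At the other time points its pools lay on both sides of 0, from -0.14 to 0.30.

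The 5 genes of water, ion and amino acid transport had the lowest median of the 7 roles at 8 and 13 days. The roles were chosen with earlier results of these data known, so this rank is a description only. It was -0.117 at 8 days and -0.188 at 13 days, against 0.008 after acute stress and -0.055 in recovery, and all 5 means were below 0 at both 8 and 13 days. Mlc1, a membrane protein of astrocyte endfeet whose human gene is mutated in a leukoencephalopathy with cysts, had the lowest residual SD within time points of the 36 genes, at 0.0432, though its SD in recovery was larger than at the other times. Its ratios were 0.02, 0.04 and 0.01 after acute stress, -0.17, -0.15 and -0.16 at 8 days, -0.16, -0.20 and -0.20 at 13 days, and -0.14, 0.02 and -0.07 in recovery. The means were 0.02 ± 0.02, -0.16 ± 0.01, -0.19 ± 0.02 and -0.06 ± 0.08, with an adjusted p of 0.196 at 13 days. Every one of the 5 arrays was below 0 at 8 days and at 13 days, from -0.25 to -0.12. At 13 days the stress pools were at 13.46, 13.61 and 13.09 and the control pools at 13.62, 13.81 and 13.29 on the normalized log2 intensity scale, so that the groups overlapped while each stress pool was below its own control. The gene has a single probe, shown by its first 30 bases since this value rests on it alone (chr15:88786336-88786395, minus strand, mm9).
Mlc1 probe: ggggtctgaaaatcgtctcttgtatacttt

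Aqp4, the water channel of astrocyte endfeet, was at -0.04, -0.32 and -0.38 after acute stress, 0.17, -0.06 and -0.21 at 8 days, -0.26, -0.41 and -0.20 at 13 days, and -0.07, 0.15 and 0.09 in recovery. It averaged -0.25 ± 0.18 after acute stress (adjusted p = 0.803) and -0.29 ± 0.11 at 13 days (adjusted p = 0.433), with 5 of 5 arrays below 0 at both time points. The 8-day pools of this brightest probe fell on both sides of 0, and its stress and control levels overlapped at every time point. The second Aqp4 probe, with means of -0.28, -0.15, -0.15 and 0.07 at the 4 times in order, had the same signs of the mean as the brightest one. It differed at 8 days, where all its pools were below 0, at -0.06, -0.16 and -0.23. After acute stress it was at -0.31, -0.33 and -0.19. Slc7a10 (Asc-1), a transporter of small neutral amino acids, was at -0.28, -0.03 and -0.16 at 8 days, a mean of -0.16 ± 0.13, and at -0.16, -0.09 and -0.05 at 13 days. Its adjusted p was 1.00 at 8 days and 0.683 at 13 days. At 13 days its stress pools, at 10.15, 10.26 and 10.25, lay below the control pools, at 10.31, 10.35 and 10.29. After acute stress it was within 0.02 of 0 in every pool, and in recovery it was at -0.06, -0.09 and -0.04.

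Slc4a4, a sodium bicarbonate cotransporter named here after its values were seen, was at -0.23, -0.42 and 0.01 at 13 days and averaged -0.22 ± 0.22 (adjusted p = 0.496). Pools 1 and 2 were low and pool 3 was at 0. Its means at the other times were 0.01 after acute stress, -0.04 at 8 days and 0.06 in recovery. The brightest and the second probe share 48 of their 60 bases, and the overlap is shown because these probes are not separate readings of the gene. They start 12 bases apart, the brightest at chr5:89663838-89663897 and the second at chr5:89663826-89663885 (plus strand, mm9). Capitals mark bases that both probes hold.
Slc4a4 brightest probe, bases 1 to 20: ATTCCTCGAACGCCACACAT
Slc4a4 second probe, bases 3 to 32: gatcctcaacATTCCTCGAACGCCACACAT
The second probe had -0.25, -0.39 and 0.05 at 13 days. The third probe, 4764 bases further on, had -0.18, 0.05 and -0.12. Slc39a12, a zinc transporter, was below 0 in 6 of 6 pools at 8 and 13 days, with means of -0.12 ± 0.11 and -0.06 ± 0.06, and averaged 0.04 after acute stress and -0.05 in recovery. Its second probe, also above background on all 20 arrays, was on the other side of 0 at 13 days, at 0.11, 0.07 and 0.02, a mean of 0.07, and at -0.00, -0.08 and -0.01 at 8 days.

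**Figure D3:**
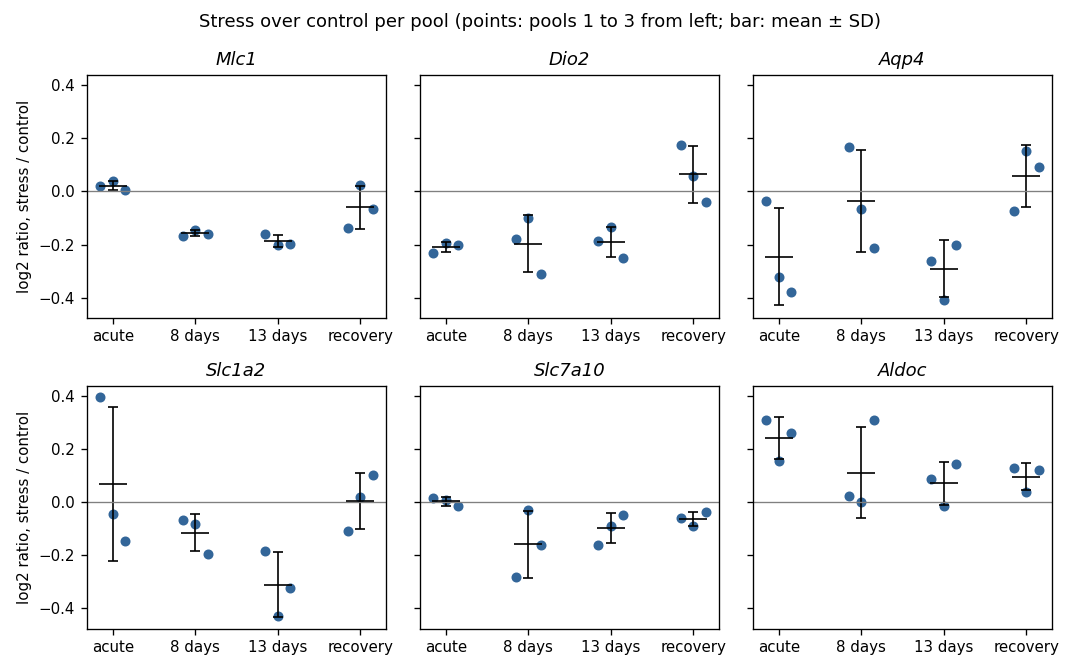
Log2 ratio of stress over control for 6 astrocyte genes at the 4 time points; points are pools 1 to 3 from left to right, and the bar and whiskers are the mean and SD. The Mlc1 pools at 8 and 13 days sit between -0.20 and -0.15, the 9 Dio2 pools under stress are all below 0, and the pools of Slc1a2 range from -0.43 to 0.40.

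Among the junction proteins, Gjb6 (connexin 30), one of the astrocytic gap junction proteins, was at 0.06, 0.12 and 0.07 after acute stress, -0.27, -0.11 and -0.03 at 8 days, -0.19, -0.07 and -0.23 at 13 days, and -0.24, -0.08 and 0.06 in recovery. It averaged -0.16 ± 0.08 at 13 days (adjusted p = 0.568) and is given because of its values. Gja1 (connexin 43), the other main astrocytic connexin, averaged -0.08 after acute stress, 0.00 at 8 days, -0.05 at 13 days and 0.04 in recovery. Cldn10, a tight junction claudin, averaged between -0.05 and 0.02.

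Of the 9 enzymes, Dio2, the deiodinase by which astrocytes make active thyroid hormone, was below 0 at every time point but recovery. Its ratios were -0.23, -0.20 and -0.20 after acute stress, -0.18, -0.10 and -0.31 at 8 days, -0.19, -0.13 and -0.25 at 13 days, and 0.18, 0.06 and -0.04 in recovery. The means were -0.21 ± 0.02, -0.20 ± 0.11, -0.19 ± 0.06 and 0.07 ± 0.11, with adjusted p of 0.441, 1.00, 0.392 and 0.999. After acute stress the stress pools, at 11.50, 11.52 and 11.34, lay below the control pools, at 11.73, 11.71 and 11.54, and at 13 days the stress pools were at 11.49, 11.54 and 11.32 and the control pools at 11.68, 11.67 and 11.57. The groups did not overlap at these times. They did at 8 days and in recovery. On single arrays 5 of 5 were below 0 after acute stress and 4 of 5 at both 8 and 13 days. Its single probe is shown for the same reason as that of Mlc1 (chr12:91963235-91963294, minus strand, mm9).
Dio2 probe: aatgataactactgacgaaagagctgtctg

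Aldoc, the brain form of the glycolytic enzyme aldolase, was above 0 in all 3 pools after acute stress, at 0.31, 0.16 and 0.26, a mean of 0.24 ± 0.08 (adjusted p = 0.462). Its stress pools, at 15.94, 15.94 and 16.14, lay above its control pools, at 15.64, 15.78 and 15.88. The arrays of a pool differed strongly, with 0.63 on the original and -0.11 on the swap of pool 3, and the same gene gave 0.85 and -0.23 on the arrays of pool 3 at 8 days. The means at the later times were 0.11, 0.07 and 0.10. Ppp1r3c, which targets a phosphatase to glycogen, had the narrowest range of the 36 among the 12 pools, at -0.08 to 0.11. It was at 0.11, -0.04 and -0.05 after acute stress, -0.07, -0.01 and -0.08 at 8 days, 0.04, 0.09 and 0.00 at 13 days, and 0.06, -0.06 and -0.01 in recovery.

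The other enzymes had adjusted p above 0.6 at every time point. Cbs, which makes cystathionine from homocysteine and serine, averaged 0.07, -0.11, -0.11 and -0.02 in order of time. Aldh1l1, an enzyme of folate metabolism widely used as an astrocyte marker, averaged 0.08, -0.04, -0.15 and 0.04, and Acsbg1, an acyl-CoA synthetase, averaged 0.10, -0.09, -0.12 and -0.08. Gldc, the decarboxylase of the glycine cleavage system, averaged between 0.01 and 0.10. Pla2g7, a lipoprotein-associated phospholipase, varied by pool from -0.29 to 0.46. Pool 1 was its highest pool at every time point. For Plcd4, a phospholipase C, the probes parted. The brightest probe averaged 0.02 after acute stress and 0.03 at 13 days, while the second averaged 0.17 and -0.14 and the third 0.13 and -0.09. The dimmest of its 4 probes was well above background on 15 of 20 arrays only. Their first 30 bases are shown, as the choice of probe decides what is read for this gene. They lie on the plus strand of chromosome 1 (mm9), the brightest at chr1:74614298-74614357, the second at chr1:74612436-74612495 and the third spread over chr1:74611705-74611842.
Plcd4 probe 1 by brightness: ggaatctgatgccctattctgatgtgtctg
Plcd4 probe 2 by brightness: aaaggttgaggaagaatgcctgactcaaaa
Plcd4 probe 3 by brightness: gaaataactttattggccaatacaccctac

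The second Plcd4 probe was above 0 in 3 of 3 pools after acute stress, at 0.21, 0.18 and 0.11, and below 0 in 3 of 3 at 13 days, at -0.14, -0.14 and -0.13. Over the whole group, 14 of the 36 genes had several probes well above background on every array. All probes of a gene had 1 sign in 10 of these 14 after acute stress, in 8 at 8 days, in 5 at 13 days and in 8 in recovery.

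**Figure D4:**
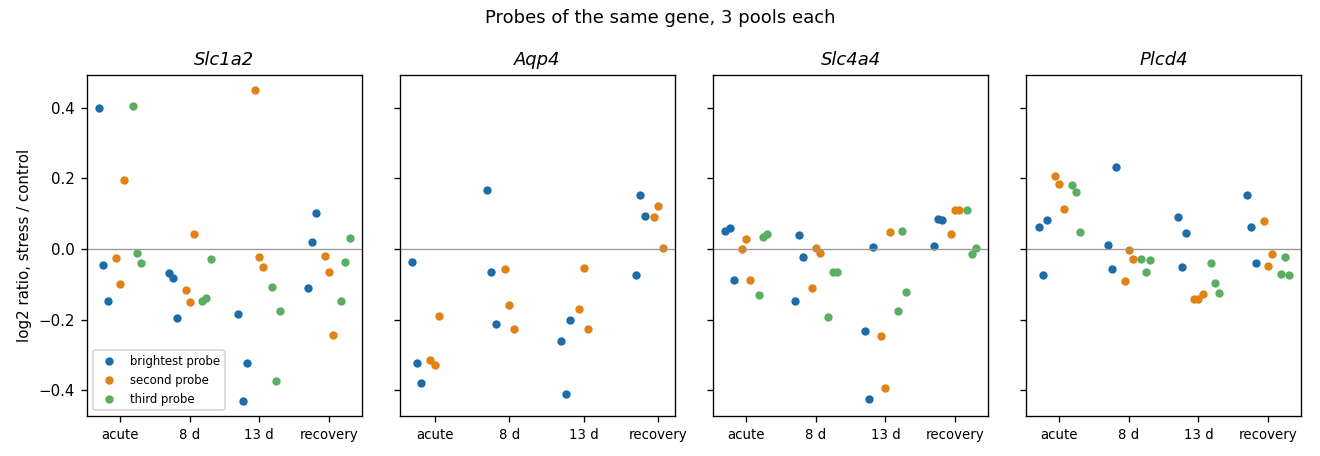
Log2 ratio of stress over control for each probe of Slc1a2, Aqp4, Slc4a4 and Plcd4 that was well above background on every array; the 3 points of a colour at a time point are pools 1 to 3. At 13 days the second Slc1a2 probe reaches 0.45 where the brightest lies between -0.43 and -0.18, and the Aqp4 probes are all below 0.

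Of the 7 secreted and matrix proteins, Htra1, a secreted serine protease given here because of its values, was at -0.45, -0.24 and 0.06 at 8 days and at -0.33, -0.17 and -0.26 at 13 days. It averaged -0.21 ± 0.26 and -0.25 ± 0.08, with adjusted p of 1.00 and 0.483, and was at 0.06 and -0.07 after acute stress and in recovery. Chrdl1, an antagonist of bone morphogenetic proteins that astrocytes release, had the largest test statistic of recovery, with 0.40, 0.16 and -0.07, a mean of 0.16 ± 0.24 (adjusted p = 0.999). Pool 1 set that mean. A second Chrdl1 probe, above background on all 20 arrays, was above 0 in every recovery pool, at 0.18, 0.08 and 0.01. The third, above background on 18 arrays, averaged -0.08 in recovery. The brightest Chrdl1 probe was at -0.09, -0.11 and -0.03 after acute stress, 0.06, -0.31 and -0.10 at 8 days, and -0.05, 0.06 and -0.09 at 13 days. The -0.31 of pool 2 at 8 days rests on the swapped array alone. Gpc5, a heparan sulphate proteoglycan, was also among the leading genes of recovery, at -0.12, -0.02 and -0.10, a mean of -0.08 ± 0.05 (adjusted p = 0.999), and stayed between -0.05 and 0.09 at the other times. The lipid carrier Apoe was at 0.30, -0.20 and 0.38 at 8 days, with pool 2 apart from the others, and its means ran from -0.07 to 0.16 over the time points. Clu, another lipid carrier, was at -0.02, -0.05 and 0.38 at 8 days, where pool 3 alone was high, and its means ran from -0.00 to 0.10. Itih3, a hyaluronan-binding inhibitor chain, was at 0.26, 0.14 and 0.02 after acute stress and at -0.00, -0.08 and -0.06 at 13 days. F3, the tissue factor that starts coagulation, averaged between -0.06 and -0.04.

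The 4 receptors had means below 0 in 4 of 4 cases at 8 days and at 13 days, and in 1 and 3 cases after acute stress and in recovery. Bmpr1b, a receptor of bone morphogenetic proteins, was at -0.11, -0.16 and -0.01 at 13 days and at 0.03, 0.07 and 0.05 in recovery. Its second probe, above background on all 20 arrays, was above 0 at 13 days, at 0.20, 0.12 and 0.02, and averaged 0.11 at 13 days and 0.12 in recovery. Ntsr2, a neurotensin receptor, and Mertk, a receptor for the engulfment of debris, covered -0.24 to 0.35 and -0.37 to 0.30 over the pools. Fgfr3, a growth factor receptor, stayed between -0.16 and 0.09. Among the factors and small binding proteins, Hes5, a repressor that acts downstream of Notch, was at -0.01, -0.25 and -0.20 after acute stress and at 0.11, 0.17 and 0.08 at 13 days, with means of -0.15 ± 0.12 and 0.12 ± 0.05 (adjusted p = 0.941 and 0.702). S100b, a calcium-binding protein, was at -0.25, -0.06 and -0.12 at 8 days and at -0.30, 0.00 and -0.14 at 13 days. Sox9, a transcription factor of the astrocyte lineage, averaged between -0.04 and 0.09. Mt3, a brain metallothionein, covered -0.18 to 0.63, with pool 1 of the 13-day group at the top.

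Set against acute stress directly, the 13-day ratios of 9 of 36 genes were lower at an unadjusted p below 0.05, against 3.42% of the genes well above background, and 1 was higher, against 2.82%. None passed the adjusted threshold. Mlc1 averaged -0.19 at 13 days and 0.02 after acute stress, a difference of -0.21 ± 0.05 (SE; adjusted p = 0.437), and Slc1a2 averaged -0.31 and 0.07, a difference of -0.38 ± 0.12 (adjusted p = 0.820). The gene that was higher was Hes5, at 0.12 and -0.15, a difference of 0.27 ± 0.08 (adjusted p = 0.778). In recovery against 13 days, 6 of 36 genes were higher at an unadjusted p below 0.05, against 3.28%, and 1 was lower, against 4.01%. They were Aqp4, Mlc1, Slc4a4, Slc1a2, Dio2 and Bmpr1b on the higher side and Gpc5 on the lower. Aqp4 averaged 0.06 in recovery and -0.29 at 13 days, a difference of 0.35 ± 0.11 (adjusted p = 0.995), and Dio2 averaged 0.07 and -0.19, a difference of 0.26 ± 0.07 (adjusted p = 0.960). Both contrasts use the 13-day pools, so the 2 lists are not separate readings.

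A second list of 36 genes known from astrocytes, none of them among the first, gave no call either (0 of 36 at each time point). At an unadjusted p below 0.05, 2 were below 0 after acute stress, against 3.22% of the genes well above background, and 8 were above 0, against 3.12%. At 8 days 5 were below, against 2.83%, and 2 above, against 1.18%, at 13 days 5 below, against 6.42%, and 3 above, against 4.56%, and in recovery 1 below, against 3.12%, and 0 above, against 1.15%. The list's median was 0.043, 0.009, -0.040 and -0.007 in order of time. Agxt2l1, an enzyme that breaks down phosphoethanolamine and which the study names, was at 0.54, 0.92 and 0.60 after acute stress, a mean of 0.69 (adjusted p = 0.120), and above 0 on 5 of 5 arrays. Fam107a, the other gene that the study names, was at 0.19, -0.06 and 0.01 after acute stress. The study reports both genes as raised by acute stress, in its own array analysis and by qPCR of single animals. Here Agxt2l1 was higher but not called, and Fam107a did not show the rise. The reason for the difference was not tested. Slc6a11, the GABA transporter of astrocytes, was at -0.30, -0.19 and -0.24 at 8 days (adjusted p = 1.00) and at 0.40, 0.19 and 0.17 at 13 days (adjusted p = 0.180).

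Partners of the glutamate and serine pathways gave 0 calls as well. Among 12 further genes of the glutamate cycle, Slc38a2, a glutamine transporter, was at 0.37, 0.40 and 0.33 at 13 days. Its mean of 0.37 passed the adjusted threshold (adjusted p = 0.0222) but not the size of 0.5. Slc38a5, a related transporter, was at 0.47, 0.20 and 0.25 at 8 days (adjusted p = 1.00). Among 10 genes of glycine and serine metabolism, Psat1 and Phgdh, both enzymes of serine synthesis, averaged -0.13 and -0.12 at 13 days (adjusted p = 0.483 and 0.541). Among 10 genes of the Notch pathway, Hey1 averaged -0.16 and Hey2 0.13 at 13 days (adjusted p = 0.623 for both), and Hey2 was well above background on 6 of 20 arrays only.

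Markers of other cells moved with some of the same groups. At 13 days all 6 red cell genes were called higher, with Hbb-b1 at 1.46, 1.91 and 1.46 and Alas2, which starts haem synthesis in young red cells, at 1.03, 1.33 and 0.63, and the median of the 6 was 1.42 at 13 days, 0.70 at 8 days, -0.04 after acute stress and 0.24 in recovery. The meningeal list had 10 of 10 means below 0 after acute stress, with Ogn at -0.13, -0.23 and -0.29, and 8 of 10 above 0 at 13 days, where Mgp was called at 1.13, 0.67 and 0.64 (adjusted p = 0.00910). The oligodendrocyte list had 10 of 10 means above 0 after acute stress, with a median of 0.27. Its Mobp, a myelin protein, was at 0.61, 0.41 and 0.47 (adjusted p = 0.0103, size 0.49), and Mag, another, averaged 0.34. On single arrays Mobp was above 0 on 5 of 5, from 0.07 to 0.86, with the swapped arrays at 0.07 to 0.22 only. Neuron markers had a median of 0.06 after acute stress and 0.02 at 13 days, with Nefm at 0.33 and Snap25 at 0.04 after acute stress. Microglia markers had medians of 0.06 and 0.03 at these times, with P2ry12 at -0.15 after acute stress and Aif1 at 0.11 at 13 days. The endothelial list had a median of 0.01 at 13 days, with Cldn5 at -0.22 and Tie1 at 0.14, and the olfactory bulb list one of -0.07, with Tbx21, well above background on 7 of 20 arrays, at -0.16 and Nmb at -0.14. The part of these lists in the ratios of the astrocyte genes was not tested.

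**Figure D5:**
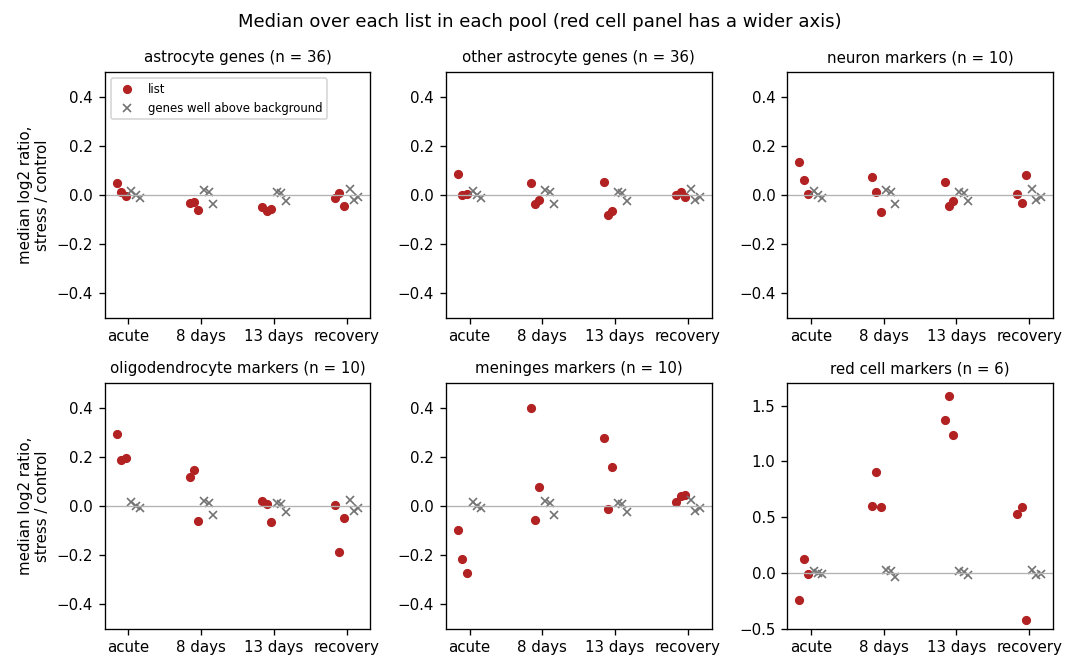
Median log2 ratio of stress over control over each gene list in each pool (red circles; 3 pools per time point), beside the median over the genes well above background (grey crosses). The astrocyte medians stay between -0.07 and 0.05, while the red cell medians reach 1.58 at 13 days and the oligodendrocyte medians lie between 0.19 and 0.29 after acute stress.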

How the data were processed

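Total RNA of prefrontal cortex was labelled with Cy3 and Cy5 and hybridised to Agilent two-colour arrays of 60-base probes. The authors scanned the arrays with Agilent Feature Extraction (version 10.10.1.1) and deposited spot intensity per channel, its background, a log10 ratio and other marks for outlier, saturated and well-above-background spots, and the deposited value table holds log2 ratios; probe coordinates are those of the array design (mm9). From the intensities, background was corrected with normexp (offset 50), followed by loess within arrays and Aquantile between arrays, with control and outlier spots at weight 0 and outlier spots left out, in limma 3.58.1 under R 4.3.3. Spots were averaged to 39429 probes from 43020 spots, the ratios of swapped arrays had their sign reversed, and each pool's arrays were averaged, giving 12 pools. The ratios were fitted with 1 mean per time point and 2 contrasts between time points. P-values were adjusted by the Benjamini-Hochberg method over all probes. Called means an adjusted p below 0.05 and a log2 ratio above 0.5 in size, the thresholds of the study's methods applied to this fit. Labels describe the replicates as biological, each of 3 mice.

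Full values were given for the 3 genes with the largest moderated t at each time point, for those with the widest and the narrowest range, for called genes and the 2 largest moderated t of each further list, and for 2 genes that the study names. The members, the gene lists and their roles were chosen with earlier results of these data known, and the counts at an unadjusted p, by direction over pools and the background of genes well above background were chosen after the values had been seen. Probe sequences were read from the deposited files. In the promoters of the genes 4 motifs were also searched, and they are not reported because these data do not bear on promoters. The fit was tested on simulated data with known changes before use. Alternatives comprised 11 settings and leaving out each of the 12 pools in turn.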

Additional observations from a re-analysis of the deposited data

Results flagged for a closer look

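Over the 36 astrocyte genes and all pairs of time points, 13 differences had every pool of one time point above 0 and every pool of the other below 0. The same count was not made for the genes well above background. Whether 13 is more than usual was therefore not tested. Of the 13 differences, 8 were tested as a difference in limma's fit and none passed (adjusted p of 0.437 to 1.00). For 13 days minus acute stress they were Glul at -0.19, Mlc1 at -0.21, Slc39a12 at -0.10, Gjb6 at -0.25, Cbs at -0.18, Itih3 at -0.19 and Hes5 at 0.27. For recovery minus 13 days it was Bmpr1b at 0.14, and its second probe did not show it, with means of 0.12 in recovery and 0.11 at 13 days. The remaining 5 were not tested as differences. They were Mlc1 at -0.18, Slc39a12 at -0.16 and Gjb6 at -0.22 for 8 days minus acute stress, Ppp1r3c at 0.10 for 13 days minus 8 days, and Slc39a12 at -0.094 for recovery minus acute stress. The second Slc39a12 probe was above 0 in every pool both at 13 days and after acute stress, so it did not show opposite signs there, while at 8 days and in recovery it was below 0 in every pool.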

How the results depend on the processing

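The count of astrocyte genes called stayed at 0 of 36 at every time point and in both contrasts under all 11 settings and all 12 fits without 1 pool. The median of the 36 genes was below 0 at 8 and 13 days in the 7 settings that could move it; the other 4 (no normalization between arrays, the trended variance, the replicate block and the filter on dim probes) leave the ratios of these genes as they are. Without pool 1 of every time point, a setting added after seeing the data, the acute median was -0.0027. Leaving out 1 pool of a time point gave acute medians of -0.0027 to 0.032 and 13-day medians of -0.079 to -0.046. The 13-day median was -0.071 with the log ratios of the Feature Extraction files and -0.051 with the mean of a gene's bright probes. The recovery median lay between -0.019 and 0.010 over all settings, on both sides of 0. Over all probes, 9 were called at 13 days, against 0 with an offset of 0, 0 with the value table of the authors, 0 with a trended, robust variance, 3 with the Feature Extraction ratios, 2 without pool 1 of every time point and 12 in both fits of 20 arrays, so that the red cell and Mgp calls at 13 days are lost in the first 3. The value table correlated at a median of 0.99979 with ratios made at offset 0 and of 0.816 with those at 50. At an adjusted p below 0.05, but under the size of 0.5, passed Aldoc after acute stress with slide as a block (0.23; adjusted p = 0.0436; range over its settings 0.0436 to 0.978), and Mlc1 at 13 days with slide as a block (-0.19; adjusted p = 0.00948) and with a dye coefficient (-0.19; adjusted p = 0.00834; range over its settings 0.00834 to 0.839). These fits take the 20 arrays as samples, with a correlation within a pool estimated at 0.0488 and 0.0424. Same-numbered pools of different time points correlated at -0.19 to 0.59 in their deviations, so the numbers were not taken as pairs of animals, though each number has its own slides. With the replicate block the 13-day median is -0.059 by construction, since each number occurs once at each time point. No astrocyte gene was called with it, and over all probes 10 were called at 13 days against 9 without it, 10 against 1 for 13 days minus acute stress, and 2 against 0 for recovery minus 13 days. The fits of 20 arrays called 10 and 11 for 13 days minus acute stress and 6 and 7 for recovery minus 13 days, with slide and dye in turn. No spot was saturated, and all 36 probes were above background, so brightness did not limit which genes could be measured.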
